A study of Rattus norvegicus with 30 samples.

Results

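Amino acid transporters were followed in cultured primary hepatocytes, taken from male Sprague Dawley rats, that received clofibrate or its solvent. The 10 genes are Slc7a1, Slc7a2, Slc7a3, Slc7a5, Slc7a11, Slc3a2, Slc43a2, Slc38a2, Slc38a3 and Slc38a4, out of 14217 genes that the array names. They were taken by name, as the probe sets that the platform's gene table gives to a single one of these symbols. The names were chosen with earlier results of these data known, so counts of them are no independent support. All 10 were found, on 13 of 31042 probe sets. Each gene is described by the probe set with the highest mean log2 signal over 30 arrays, and all 10 of these lay above the filter on dim probe sets. Slc7a1 had 2 further probe sets and Slc43a2 had 1 more, while the other 8 genes had 1 each.

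Clofibrate is a lipid-lowering fibrate and a ligand of PPAR-alpha, a nuclear receptor. The commercially frozen cells were thawed, plated on collagen, covered with Matrigel and then given 1% DMSO, 60 uM clofibrate or 1000 uM clofibrate for 24 or 48 h, with the clofibrate also dissolved in DMSO, per the labels' protocols. The 6 groups of dose and time held 5 cultures each, every culture being 1 well measured on 1 Affymetrix array. The replicate numbers given below follow the order of the sample records and only name an array. Separate animals are not named in the labels, so every p-value rests on culture-to-culture spread, which may be technical. Both doses at a time were compared with the same DMSO arrays.

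Amino acid transporters of the cell membrane fall into families with different cargo. The Slc7 family holds cationic transporters (Slc7a1, Slc7a2 and Slc7a3, which carry arginine, lysine and ornithine) and light chains (Slc7a5 and Slc7a11), which reach the membrane bound to the heavy chain encoded by Slc3a2. The Slc38 family takes up small neutral amino acids together with sodium, and in liver it feeds glutamine and alanine to ammonia handling, urea synthesis and gluconeogenesis. When amino acids run short, the kinase GCN2 raises translation of the transcription factor ATF4, which is known to raise Slc7a1, Slc7a5, Slc7a11, Slc3a2 and Slc38a2 in many cell types.

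The arrays were comparable in level, with a trimmed mean signal of 1501 on each. Precision is limited by how many arrays there were. Correlations between arrays of a group lay between 0.964 and 0.979. The hepatocyte label was checked with 11 marker genes, of which 10 were on the array and all 10 lay above the background floor in every group. At 1000 uM 8 of the 10 passed as lower at 24 h and 6 at 48 h, by unequal amounts. Of all probe sets tested, 17.4% passed as lower at 24 h and 22.7% at 48 h. At 48 h Tat changed by -1.31, Ahsg by -1.24 and Fgb by -0.82, while Alb (-0.0038), Ttr (-0.01), Apoa1 (-0.06) and Hnf4a (-0.01) did not pass. The summed signal of these 10 was 599948 to 669171 in DMSO at 24 h, 500469 to 549050 at 1000 uM at 24 h, 532991 to 628119 in DMSO at 48 h and 439466 to 460819 at 1000 uM at 48 h. The 10 Kupffer cell markers on the array had sums at 1000 uM and in DMSO of 23961 to 26126 against 27621 to 29316 at 24 h and 21395 to 22734 against 23386 to 27271 at 48 h. Most of that sum came from Cd14 and Lyz2, with means of 15930 and 7584 of 28756 in DMSO at 24 h. Cd14 did not pass at 1000 uM (-0.10 at 24 h and -0.01 at 48 h). Of the 8 tested, only Lyz2 passed as lower at 24 h (-0.59), and Lyz2 (-0.85) and C1qb (-1.86) at 48 h, while Cd68, Clec4f and Csf1r did not pass and had changes of 0.16, 0.38 and 0.29 at 48 h. The 4 bile duct markers had sums of 7061 to 8077 against 9815 to 11390 at 24 h and 9848 to 10481 against 12603 to 15030 at 48 h. Nearly all of that sum was the single gene Epcam (-0.44 at 24 h and -0.43 at 48 h), the others lying below the filter. Sums of 9 stellate, 6 endothelial and 5 lymphoid markers overlapped between 1000 uM and DMSO at both times. Of 6 stellate markers tested only Acta2 passed at 1000 uM, as lower (-0.56 at 24 h and -0.49 at 48 h). Of 4 endothelial markers tested only Pecam1 passed, as higher at 48 h (0.70). In such bulk cultures, fewer cells of a type and less RNA per cell cannot be told apart, and the part of these values in the results on transporters was not tested. The 3'/5' signal ratio, a sign of RNA quality, averaged 2.33 to 2.56 per group for actin and 1.14 to 1.18 for GAPDH. For actin it was highest at 1000 uM, at 2.56 against 2.42 in DMSO at 24 h and 2.48 against 2.33 at 48 h. For GAPDH it was lowest there, at 1.15 against 1.17 and 1.14 against 1.18. Single arrays overlapped between these groups, and the part of this in the results was not tested.

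Transporter signals were mostly lower with clofibrate, and more of them passed at the higher dose. Passing means an adjusted p under 0.05 in a limma fit over all 18625 probe sets above the filter. At 60 uM, 2 of 10 genes were lower at 24 h (Slc7a1 and Slc38a4), where 6.56% of all probe sets tested passed (3.43% higher and 3.14% lower). At 60 uM and 48 h, 3 of 10 were lower (Slc7a1, Slc7a11 and Slc38a4), against 9.05% of all probe sets passing (4.62% higher and 4.43% lower). At 1000 uM and 24 h, 4 were lower (Slc7a1, Slc7a11, Slc38a3 and Slc38a4) and 1 was higher (Slc3a2), where 28.9% of all probe sets passed (11.5% higher and 17.4% lower). At 1000 uM and 48 h, 7 were lower (Slc7a1, Slc7a11, Slc3a2, Slc43a2, Slc38a2, Slc38a3 and Slc38a4) and 1 was higher (Slc7a3), against 37.9% of all probe sets passing (15.2% higher and 22.7% lower). Slc7a2 and Slc7a5 passed in none of the 9 comparisons made by limma.

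The median log2 change of the 10 genes was -0.18 and -0.30 at 60 and 1000 uM at 24 h, beside -0.03 and -0.05 over all probe sets tested. At 48 h it was -0.23 and -0.45, beside -0.00 and -0.04 over all. The deposited scaling sets these levels. When the arrays were scaled to 24 spiked-in control probe sets instead, the median of all probe sets at 1000 uM moved to 0.18 at 24 h and 0.12 at 48 h, and at 60 uM and 24 h to 0.10. The share of higher probe sets among those that passed moved with it, being 82.3% in place of 39.8% for 1000 uM at 24 h, 68.5% in place of 40.2% for 1000 uM at 48 h, 91.3% in place of 52.2% for 60 uM at 24 h, and 70.8% in place of 51.0% for 60 uM at 48 h. Centring each array on its median put the same share at 54.2% at 1000 uM and 24 h and at 74.9% at 60 uM and 24 h. Under spike-in scaling 25 of the 37 results of single transporters that passed still passed, all 37 kept their direction, and the calls lost are given with each gene.

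**Figure D1:**
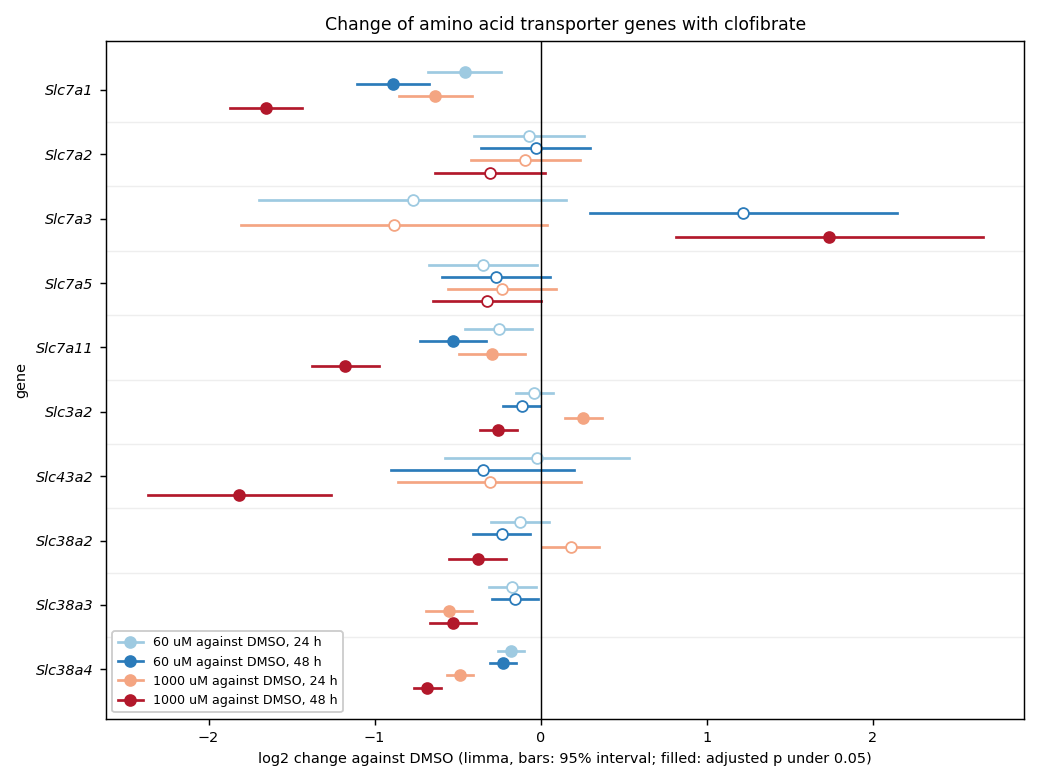
Log2 change against DMSO of the brightest probe set of 10 amino acid transporter genes, with 95% intervals of the limma fit; colours stand for dose and time and filled points have an adjusted p under 0.05. Slc7a1 lies at -1.65 and Slc43a2 at -1.81 at 1000 uM and 48 h, Slc3a2 lies on opposite sides of 0 at the 2 times, and Slc7a3 has the widest intervals.

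Slc7a1 encodes CAT-1, the widely expressed cationic amino acid transporter, which adult liver is known to hold at low levels. Its promoter is shown because it was the one window among those of the 10 genes with the letters TGATGNAA, the core of the amino acid response element that ATF4 binds with partner factors. The 250 bases before the RefSeq start, at chr12:11664238-11664487 of GRCr8 on the plus strand, read 5′ to 3′, with capitals marking 2 motif matches.

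Slc7a1: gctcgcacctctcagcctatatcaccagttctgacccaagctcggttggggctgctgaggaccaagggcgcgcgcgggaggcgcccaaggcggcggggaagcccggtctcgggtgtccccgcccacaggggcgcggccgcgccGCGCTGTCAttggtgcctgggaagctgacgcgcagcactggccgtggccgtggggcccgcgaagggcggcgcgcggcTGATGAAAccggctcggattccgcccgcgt

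The match TGATGAAA lies at positions -30 to -23, counting the base before the start as -1, on the strand of the gene. The other capitals, at -107 to -99, match TGACNNNGC on the opposite strand, the core of the antioxidant response element that NRF2 binds. In all promoter windows of 300 bases (250 before and 50 after the start), searched on both strands, TGATGNAA is held by 3.98% and TGACNNNGC by 12.06% of 33469. A match is a description of the letters, not a bound site.

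The Slc7a1 signal was lower at each dose and time, and lowest at 1000 uM and 48 h. At 24 h its 5 arrays had signals of 2814, 2223, 2481, 2406 and 3038 in DMSO, 2078, 1790, 1988, 1569 and 1997 at 60 uM, and 1852, 1707, 1727, 1585 and 1460 at 1000 uM. At 48 h they had 2301, 2248, 2444, 3341 and 2799 in DMSO, 1504, 1344, 1583, 1244 and 1360 at 60 uM, and 835, 851, 713, 981 and 772 at 1000 uM. Neither dose overlapped DMSO at either time, and the doses overlapped each other at 24 h but not at 48 h. The log2 change was -0.46 ± 0.11 (standard error, n = 5 arrays per group here and below) at 60 uM and 24 h (limma adjusted p = 0.00491) and -0.63 ± 0.11 at 1000 uM (limma adjusted p = 1.54e-05). At 48 h it was -0.89 ± 0.11 at 60 uM (limma adjusted p = 2.07e-07) and -1.65 ± 0.11 at 1000 uM, 3.15-fold lower (limma adjusted p = 1.59e-14).

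The 2 doses of clofibrate differed for Slc7a1 at 48 h, by -0.76 ± 0.11 (limma adjusted p = 9.92e-07), where 25.3% of all probe sets passed. At 24 h the difference was -0.17, with a 95% interval from -0.39 to 0.04. The effect of 1000 uM at 48 h minus that at 24 h was -1.02 ± 0.15 (limma adjusted p = 1.61e-05). DMSO cultures at 48 h differed from those at 24 h by 0.01, with an interval from -0.21 to 0.23. Under spike-in scaling the call at 60 uM and 24 h was lost (-0.34, limma adjusted p = 0.133), and at 1000 uM the change was -0.41 at 24 h and -1.49 at 48 h, both still passing.

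The probe sets of Slc7a1 did not give the same picture. The values above are of 1368391_at. The second set, 1368392_at, had signals of 1618, 1521, 1661, 1518 and 1746 in DMSO at 24 h and 1394, 1603, 1478, 1458 and 1533 at 1000 uM. At 48 h it had 1657, 1320, 1361, 1656 and 1265 in DMSO and 1504, 1116, 1012, 1480 and 1255 at 1000 uM. These groups overlap, and no comparison passed: the change at 1000 uM was -0.11 at 24 h and -0.20 at 48 h, with a 95% interval from -0.40 to 0.00. At 60 uM it was -0.13 at 24 h and 0.01 at 48 h.

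The log2 ratio of the first to the second set fell within the same arrays, a test chosen after their values were seen. It averaged 0.68 in DMSO, 0.35 at 60 uM and 0.16 at 1000 uM at 24 h. At 48 h it averaged 0.85, -0.05 and -0.61 in the same order. At 1000 uM and 48 h it fell by 1.46, with no overlap between the groups and an exact two-sided permutation p of 0.00794, the smallest that 5 against 5 arrays can give, and 0.0139 after Benjamini-Hochberg adjustment over 7 comparisons. The ratio also fell at 60 uM and 24 h (by 0.32, adjusted exact p = 0.0333), at 1000 uM and 24 h (by 0.52, adjusted exact p = 0.0139) and at 60 uM and 48 h (by 0.90, adjusted exact p = 0.0139). Over 30 arrays the sets correlated with r = 0.545, a description over arrays that share the 6 groups.

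The third set, 1387167_at, was dim, below the floor on 7 of 30 arrays and below the filter. It had signals of 251.6, 308, 263, 274 and 217 in DMSO at 24 h and 117, 157, 99.5, 142 and 153 at 1000 uM. These did not overlap, with an exact two-sided permutation p of 0.00794 and 0.0370 adjusted over 7 comparisons. At 48 h its DMSO arrays ranged from 30.6 to 222 and its 1000 uM arrays from 21.8 to 222, so no order can be read there. The third set's log2 change at 60 uM and 24 h was -1.18 (adjusted exact permutation p = 0.0370). In DMSO alone, at 48 h against 24 h, it was -1.56 (adjusted exact permutation p = 0.0370), larger than its changes with clofibrate. The first set thus fell at both times with clofibrate. The third was lower at 24 h, where its DMSO group was the highest of the 6, and the second did not pass at any dose or time. Which transcript ends each set reads was not analysed here.

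**Figure D2:**
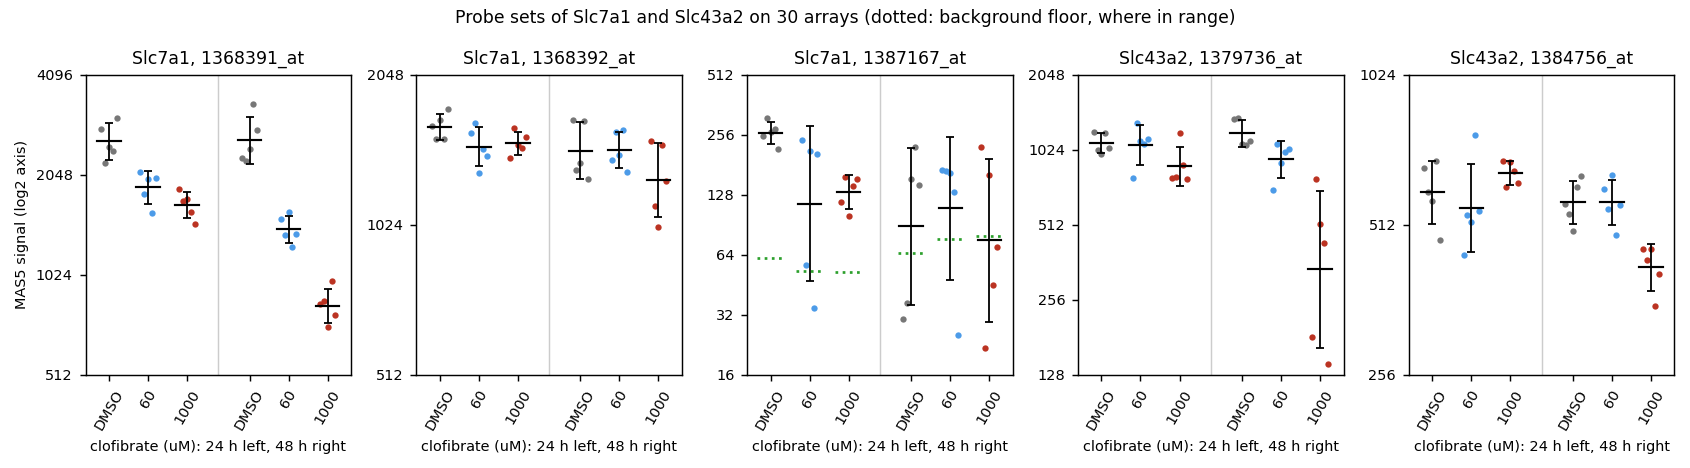
MAS5 signal of 3 probe sets of Slc7a1 and 2 of Slc43a2 on 30 arrays, on log2 axes of differing range; points are single arrays, black lines the mean and SD of log2 signal in each group of 5, and green dotted lines the background floor. The first Slc7a1 set lies below DMSO at both doses and times, with the doses overlapping at 24 h but not at 48 h. The second stays between 1012 and 1746, and the third reaches the floor in 4 of the 6 groups.

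The other cationic transporters were dim. Slc7a2, which encodes the CAT-2 transporter whose long form is the liver's low-affinity carrier, had signals between 324 and 710 on all 30 arrays. Its largest change against DMSO, at 1000 uM and 48 h, was -0.31 with a 95% interval from -0.63 to 0.02, and its 5 arrays there (382, 459, 324, 442 and 440) overlapped those of DMSO (493, 595, 430, 463 and 547).

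Slc7a3, the CAT-3 transporter best known from brain, had uneven signals. At 24 h it had 494, 532, 392, 473 and 373 in DMSO and 353, 463, 240, 72.0 and 301 at 1000 uM. At 48 h it had 58.1, 400, 102, 122 and 65.8 in DMSO, 113, 297, 416, 398 and 236 at 60 uM, and 322, 407, 383, 451 and 346 at 1000 uM. The low group was DMSO at 48 h, with 1 array of its 5 as high as those at 1000 uM. The change at 1000 uM and 48 h was 1.74 ± 0.45 (limma adjusted p = 0.00243), though the groups overlapped.

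At 24 h the Slc7a3 change at 1000 uM was -0.88, with a 95% interval from -1.81 to 0.04, and the difference between the times was 2.62 ± 0.64 (limma adjusted p = 0.00699). In DMSO alone Slc7a3 was lower at 48 h than at 24 h, with a difference of -1.98 ± 0.45 (limma adjusted p = 0.00427). The levels at 1000 uM and 48 h (322 to 451) lay within those of DMSO at 24 h (373 to 532) on 3 of 5 arrays. Without replicate 2 of DMSO at 48 h, the rise at 60 uM and 48 h, 1.22 with all arrays (limma adjusted p = 0.0962), became 1.68 and passed (limma adjusted p = 0.00861). That was the largest of 10 fits without 1 array, which ranged down to 0.98, with limma adjusted p up to 0.257.

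Slc7a11 encodes xCT, the light chain that exchanges glutamate for cystine, from which cells make glutathione. At 24 h its 5 arrays had signals of 2678, 2509, 2734, 2570 and 2452 in DMSO, 2640, 1906, 2045, 2095 and 2227 at 60 uM, and 2214, 1899, 2327, 2318 and 1860 at 1000 uM. At 48 h they had 2045, 2141, 2675, 2666 and 2537 in DMSO, 1734, 1753, 1767, 1704 and 1387 at 60 uM, and 1203, 1149, 1087, 1044 and 858 at 1000 uM. At 48 h the 3 groups did not overlap and were ordered by dose. The change there was -0.53 ± 0.098 at 60 uM (limma adjusted p = 0.00025) and -1.18 ± 0.098 at 1000 uM, 2.26-fold lower (limma adjusted p = 8.59e-12).

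At 24 h the Slc7a11 change was small, -0.25 at 60 uM (limma adjusted p = 0.137) and -0.29 ± 0.098 at 1000 uM (limma adjusted p = 0.0227). The call at 1000 uM was lost under spike-in scaling (-0.06, limma adjusted p = 0.726), under median centring (limma adjusted p = 0.0889), under quantile normalization (limma adjusted p = 0.0517) and without 1 of 3 single arrays, replicate 2 or 5 of 1000 uM or replicate 3 of DMSO (limma adjusted p = 0.0689, 0.0774 and 0.0530). The effect of 1000 uM at 48 h minus that at 24 h was -0.88 ± 0.14 (limma adjusted p = 3.77e-05). The 2 doses differed at 48 h by -0.65 ± 0.098 (limma adjusted p = 3.87e-06) and at 24 h by -0.04, with an interval from -0.24 to 0.16. The promoter window of Slc7a11 held neither motif.

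The glutathione genes around Slc7a11 were set beside it, from a list of 12 genes of glutathione synthesis and NRF2 targets that holds Slc7a11 itself. Of 11 tested, 1 was higher and 5 were lower at 1000 uM at each time, and the median change was -0.02 at 24 h and -0.16 at 48 h. Among all probe sets, 28.9% passed at 24 h and 37.9% at 48 h. Gss, glutathione synthetase, fell by 0.51 ± 0.055 at 24 h and by 0.86 ± 0.055 at 48 h at 1000 uM. Gclc, the catalytic subunit of glutamate-cysteine ligase, fell by 0.46 ± 0.051 and 0.40 ± 0.051. Srxn1, sulfiredoxin, fell by 0.37 ± 0.051 and 1.05 ± 0.051. Me1, cytosolic malic enzyme and also a known PPAR-alpha target, was the member that rose, by 1.31 ± 0.06 at 24 h, and it passed as higher at 48 h too. All of these passed in limma. Among the listed genes that passed at neither time at 1000 uM were Gclm (0.06 and 0.09), Nqo1 (-0.01 and -0.16) and Gsr (0.03 and 0.05).

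Slc3a2 encodes 4F2hc (CD98), the heavy chain that carries Slc7a5 and Slc7a11 to the membrane. A stretch of its promoter is shown with that of Slc38a2, which encodes SNAT2, because these are the other windows with a motif match and both genes were higher at 1000 uM than at 60 uM at 24 h. Both come from RefSeq's GRCr8 and lie on the minus strand, at chr1:215039697-215039725 for Slc3a2 and chr7:129742651-129742679 for Slc38a2. Capitals mark a match to TGACNNNGC, on the opposite strand in Slc3a2 and on the strand of the gene in Slc38a2.

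Slc3a2: gcggatcgggGCGGAGTCAtgggtcactt

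Slc38a2: ccccgcccacTGACGCGGCtccaggccgc

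The match lies at -45 to -37 in Slc3a2, in 1 of the 2 windows listed for that gene, and at -50 to -42 in Slc38a2. RefSeq's table held 8 windows for 7 of the 10 genes. Those of Slc7a2, Slc7a3 and Slc38a3 were not in it. Of the 8 windows 1 held TGATGNAA and 3 held TGACNNNGC.

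Slc3a2 moved in opposite directions at the 2 times. At 24 h its 5 arrays had signals of 27928, 29046, 30445, 29191 and 31781 in DMSO, 30955, 27966, 29320, 28350 and 27906 at 60 uM, and 36125, 34281, 37189, 33320 and 36191 at 1000 uM. At 48 h they had 22097, 23616, 21779, 27195 and 26910 in DMSO, 24562, 22307, 22098, 21150 and 21782 at 60 uM, and 20470, 21882, 20411, 19391 and 19365 at 1000 uM. At 24 h every array at 1000 uM lay above every other array of that time, and at 48 h the highest of them overlapped the lowest of DMSO. The rise at 24 h was 0.26 ± 0.055 (limma adjusted p = 0.000401) and the change at 48 h was -0.26 ± 0.055 (limma adjusted p = 0.000297). The difference between the times was -0.51 ± 0.077 (limma adjusted p = 2.31e-05).

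The rise of Slc3a2 at 24 h kept its call under every scaling tried, at 0.22 to 0.48. The fall at 48 h did not, at -0.09 under spike-in scaling (limma adjusted p = 0.474). At 60 uM the change was -0.04 at 24 h, with a 95% interval from -0.15 to 0.07, and -0.12 at 48 h, which did not pass (limma adjusted p = 0.226). In DMSO cultures Slc3a2 was lower at 48 h than at 24 h, with a difference of -0.29 ± 0.055 (limma adjusted p = 0.00046), where 6.94% of all probe sets passed and 3 of the 10 transporters did, all lower (Slc7a3, Slc3a2 and Slc38a3). Spike-in scaling ended that call for Slc3a2 (-0.14, limma adjusted p = 0.361).

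Slc7a5 encodes LAT1, the light chain for large neutral amino acids. At 24 h its arrays had signals of 703, 650, 811, 784 and 856 in DMSO and 666, 834, 575, 570 and 616 at 1000 uM. At 48 h they had 565, 440, 636, 709 and 732 in DMSO and 473, 456, 531, 547 and 428 at 1000 uM. The groups overlapped, and the changes at 1000 uM of -0.23 (95% interval -0.56 to 0.09) and -0.32 (-0.65 to 0.00) did not pass.

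Slc43a2 encodes LAT4, a carrier of branched-chain amino acids and phenylalanine that works without a heavy chain. Its first probe set, 1379736_at, had signals of 1353, 1372, 1078, 1072 and 1112 in DMSO at 48 h, 708, 1076, 908, 1002 and 1031 at 60 uM, and 181, 784, 513, 432 and 141 at 1000 uM. The arrays at 1000 uM all lay below DMSO but spread widely among themselves. The change was -1.81 ± 0.27 (limma adjusted p = 1.48e-06), and against 60 uM it was -1.47 ± 0.27 (limma adjusted p = 7.68e-05). At 24 h the change at 1000 uM was -0.31, with an interval from -0.86 to 0.24, and the effect of 1000 uM at 48 h minus that at 24 h was -1.51 ± 0.38 (limma adjusted p = 0.00963).

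The second Slc43a2 set, 1384756_at, gave a smaller fall at 48 h. It had signals of 564, 538, 497, 608 and 641 in DMSO, 603, 551, 645, 488 and 561 at 60 uM, and 457, 435, 457, 352 and 408 at 1000 uM. The arrays at 1000 uM all lay below the others of that time. The change was -0.43 ± 0.13 (limma adjusted p = 0.00907), and its difference from 24 h, -0.57, did not pass (limma adjusted p = 0.0572). Both sets of Slc43a2 therefore passed as lower at 1000 uM and 48 h, with sizes of -1.81 and -0.43.

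Slc38a4 encodes SNAT4, a liver-enriched carrier of neutral amino acids. At 24 h its 5 arrays had signals of 36080, 39221, 40691, 39365 and 40070 in DMSO, 34267, 33682, 34920, 34434 and 34988 at 60 uM, and 27763, 27769, 28056, 27184 and 28870 at 1000 uM. At 48 h they had 38580, 38522, 36298, 37122 and 42585 in DMSO, 34233, 32478, 31746, 32651 and 33545 at 60 uM, and 22931, 23123, 24065, 24578 and 25589 at 1000 uM. At each time the 3 groups did not overlap and were ordered by dose.

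The log2 change of Slc38a4 was -0.18 ± 0.039 at 60 uM and 24 h (limma adjusted p = 0.00209) and -0.23 ± 0.039 at 48 h (limma adjusted p = 7.27e-05). At 1000 uM it was -0.48 ± 0.039 at 24 h (limma adjusted p = 5.05e-12) and -0.68 ± 0.039 at 48 h (limma adjusted p = 5.93e-16). The effect of 1000 uM at 48 h minus that at 24 h was -0.20 ± 0.055 (limma adjusted p = 0.0183). Spike-in scaling kept the calls at 1000 uM against DMSO (-0.26 and -0.52) and ended those at 60 uM (-0.06, limma adjusted p = 0.766, and -0.19, limma adjusted p = 0.186), that between the doses at 24 h (-0.20, limma adjusted p = 0.0839) and that between the times (-0.26, limma adjusted p = 0.220). Median centring also ended the call at 60 uM and 24 h (-0.13, limma adjusted p = 0.234).

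Slc38a3 encodes SNAT3, the system N carrier that moves glutamine in either direction across the hepatocyte membrane. At 24 h its arrays had signals of 5621, 4860, 5240, 5739 and 6385 in DMSO, 5420, 4816, 4625, 4741 and 5087 at 60 uM, and 4224, 3950, 3553, 3828 and 3395 at 1000 uM. At 48 h they had 4920, 4542, 4955, 5096 and 4217 in DMSO, 3926, 4603, 4404, 4012 and 4383 at 60 uM, and 3274, 3189, 3153, 3524 and 3275 at 1000 uM. The arrays at 1000 uM lay below all others of their time, while 60 uM overlapped DMSO. The change at 1000 uM was -0.55 ± 0.068 at 24 h (limma adjusted p = 7.02e-08) and -0.53 ± 0.068 at 48 h (limma adjusted p = 1.13e-07).

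For Slc38a3 the effects of 1000 uM at the 2 times differed by 0.02, with a 95% interval from -0.17 to 0.22. The changes at 60 uM, -0.17 at 24 h and -0.15 at 48 h, did not pass (limma adjusted p = 0.161 and 0.192). The doses differed by -0.38 ± 0.068 at each time, a call that spike-in scaling ended (limma adjusted p = 0.0533 at 24 h and 0.0704 at 48 h). Slc38a3 was also lower in DMSO at 48 h than at 24 h, with a difference of -0.23 ± 0.068 (limma adjusted p = 0.0369), which was lost under median centring and spike-in scaling, with no filter, with the 2 groups alone and without any 1 of 5 single arrays.

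Slc38a2, the stress-responsive SNAT2, had signals at 24 h of 4181, 3525, 3443, 4558 and 4427 in DMSO, 4122, 3515, 3531, 3544 and 3671 at 60 uM, and 4473, 4479, 4482, 4843 and 4396 at 1000 uM. At 48 h it had 4208, 3192, 3681, 4489 and 3923 in DMSO, 3304, 3263, 3709, 2858 and 3376 at 60 uM, and 2636, 3134, 3312, 2941 and 2907 at 1000 uM. At 24 h the arrays at 1000 uM lay above those at 60 uM but overlapped DMSO, and at 48 h they were mostly below DMSO. The change against DMSO was 0.18 at 24 h (95% interval 0.01 to 0.35, limma adjusted p = 0.114) and -0.38 ± 0.084 at 48 h (limma adjusted p = 0.00047). The doses differed by 0.30 ± 0.084 at 24 h (limma adjusted p = 0.00901), where 17.9% of all probe sets passed and 4 of the 10 transporters did.

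The effect of 1000 uM on Slc38a2 at 48 h minus that at 24 h was -0.56 ± 0.12 (limma adjusted p = 0.00189). Under spike-in scaling the value at 24 h rose to 0.41 and passed (limma adjusted p = 0.00463), and that at 48 h was -0.22 and did not (limma adjusted p = 0.137).

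**Figure D3:**
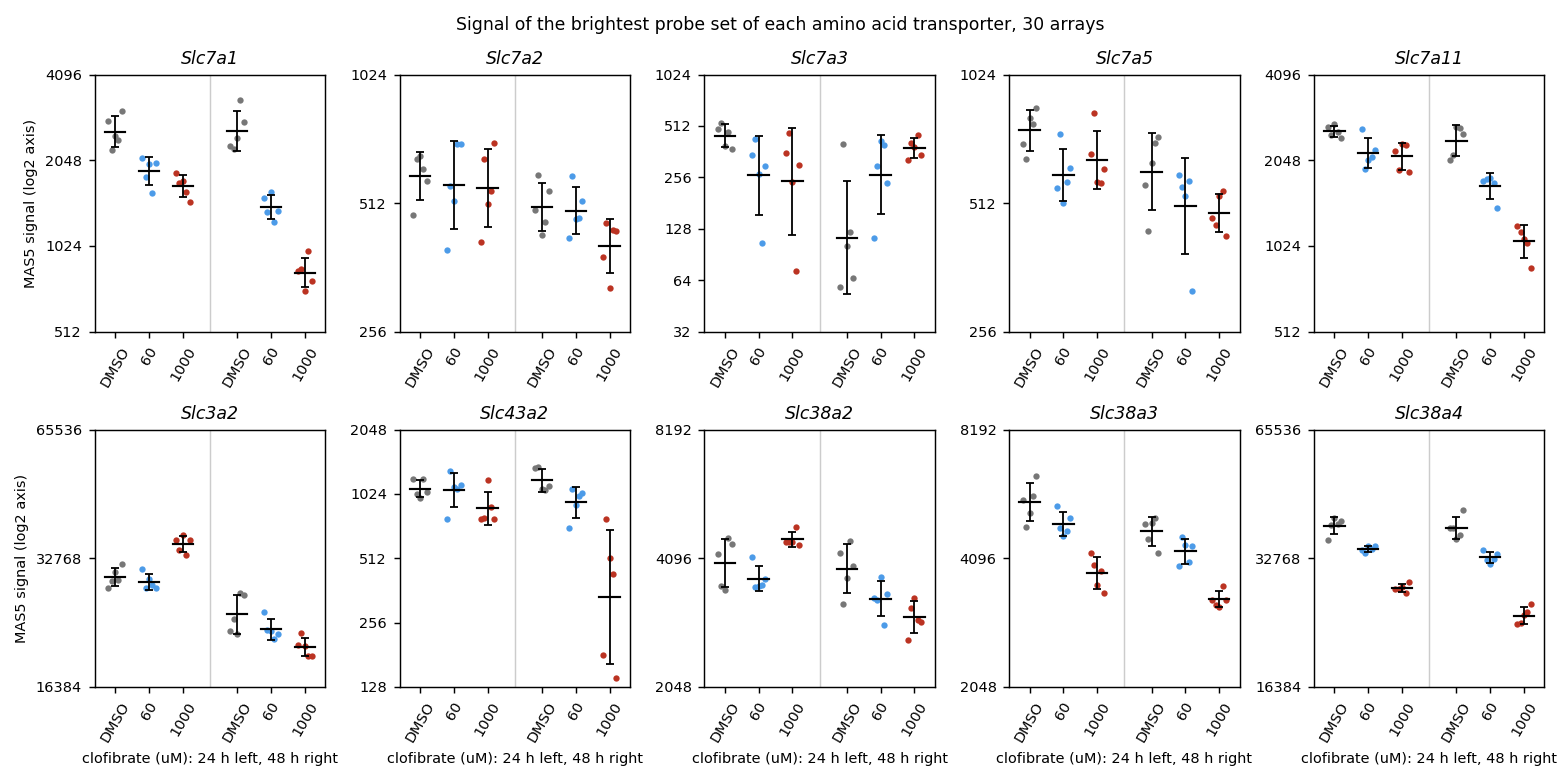
MAS5 signal of the brightest probe set of each of 10 transporter genes on 30 arrays, on log2 axes of differing range; points are single arrays, black lines the mean and SD of log2 signal in each group of 5, with 24 h at the left and 48 h at the right. Slc38a4 and Slc7a1 step down from DMSO to 1000 uM at both times, Slc7a11 and Slc43a2 mainly at 48 h, and Slc3a2 is highest at 1000 uM and 24 h.

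The difference between the times was tested for each dose. For 1000 uM, 7 of 10 transporters passed, 6 with a lower effect at 48 h (Slc7a1, Slc7a11, Slc3a2, Slc43a2, Slc38a2 and Slc38a4) and 1 with a higher one (Slc7a3), where 8.29% of all probe sets passed. For 60 uM, 0 of 10 passed in limma, where 0.0859% of all probe sets passed, and 2 had an unadjusted p under 0.05 (Slc7a1 and Slc7a3). Between the doses at 48 h, 5 of 10 were lower at 1000 uM (Slc7a1, Slc7a11, Slc43a2, Slc38a3 and Slc38a4), where 25.3% of all probe sets passed.

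Genes of the amino acid response were set beside the transporters, as a list of 30 genes, Atf4 itself and its known outputs, that holds none of the 10. At 1000 uM and 24 h, 16 were higher and 4 lower with a median change of 0.22, and at 48 h 3 were higher and 16 lower with a median of -0.29. Of all probe sets tested, 11.5% passed as higher and 17.4% as lower at 24 h, and 15.2% and 22.7% at 48 h. The effect at 48 h was lower than at 24 h for 18 of 30 and higher for 1, where 8.29% of all probe sets passed. Fgf21, a liver hormone, rose by 1.03 ± 0.15 at 24 h and Vldlr, a lipoprotein receptor, by 0.88 ± 0.099. Clofibrate is a PPAR-alpha ligand, and whether the changes in this list came through ATF4, PPAR-alpha or another factor was not tested. At 48 h Mthfd2, of mitochondrial folate metabolism, fell by 1.22 ± 0.14 and Chac1, which degrades glutathione, by 1.14 ± 0.13. Phgdh, the entry enzyme of serine synthesis, fell by 0.92 ± 0.09 and Cth, which makes cysteine, by 0.83 ± 0.07 at 48 h. At the other time Vldlr was still higher (0.56 at 48 h) and Cth already lower (-0.46 at 24 h), both passing. Fgf21 at 48 h (0.23) did not pass, nor did Mthfd2 (0.27), Chac1 (-0.23) and Phgdh (0.04) at 24 h. Asns, asparagine synthetase, named after its values were seen, rose by 0.59 ± 0.061 at 24 h and fell by 0.37 ± 0.061 at 48 h (limma adjusted p = 1.71e-09 and 7.69e-06). At 60 uM, 2 passed at 24 h, both lower, and at 48 h 1 was higher and 10 were lower. Of all probe sets, 6.56% and 9.05% passed in these comparisons.

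**Figure D4:**
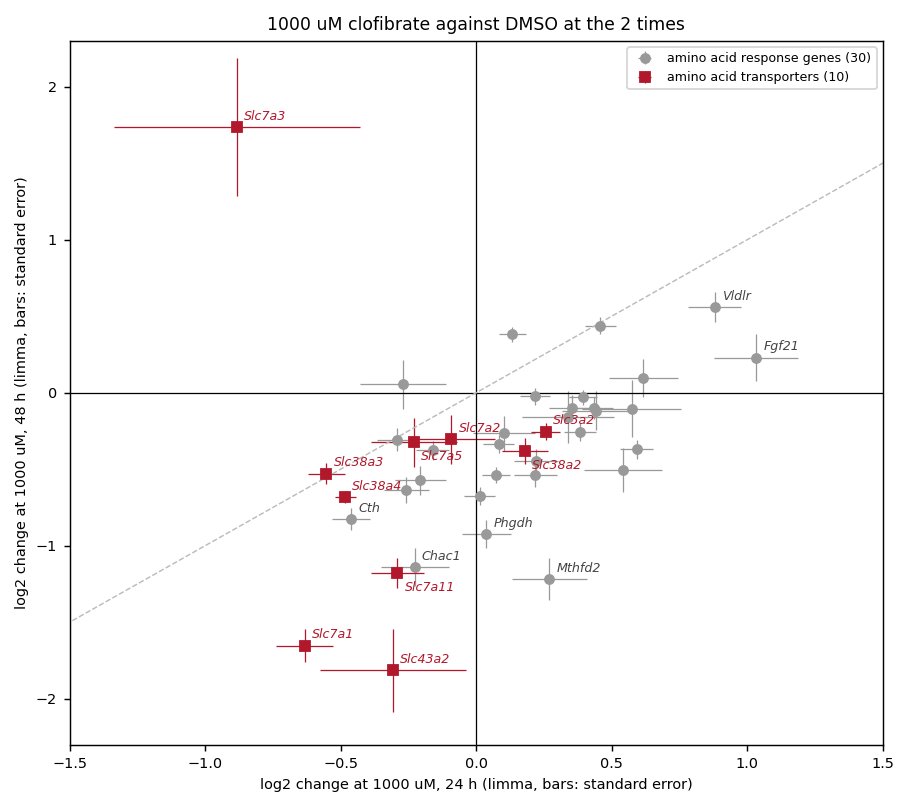
Log2 change at 1000 uM against DMSO at 24 h (horizontal) and 48 h (vertical), with standard errors of the limma fit, for 10 amino acid transporters (red squares) and 30 amino acid response genes (grey circles); the dashed line marks equal change. Slc3a2 and Slc38a2 lie among the grey circles right of 0, and Slc7a1, Slc7a11 and Slc43a2 lie below the dashed line with negative changes at both times.

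The genes of amino acid sensing were counted too, a list that holds the kinases Mtor and Eif2ak4 (GCN2) themselves with their partners. Of 11 tested, 1 was higher and 4 were lower at 1000 uM and 24 h, and 4 passed at 48 h, each of them lower. Of all probe sets, 28.9% passed at 24 h and 37.9% at 48 h. Sesn1, a leucine-responsive stress protein, fell by 1.70 ± 0.10 and 1.24 ± 0.10 at the 2 times, and Rragc, a Rag GTPase, by 0.32 ± 0.059 and 0.57 ± 0.059. Flcn, folliculin, fell by 0.30 ± 0.081 and 0.46 ± 0.081. Castor1, an arginine sensor, was the one that rose, by 0.62 ± 0.14 at 24 h, and its change of 0.26 at 48 h did not pass.

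Of 33 other amino acid transporters, 27 were on the array and 18 were tested. At 1000 uM 2 were higher and 5 lower at 24 h, where 28.9% of all probe sets passed. At 48 h 1 was higher and 5 lower, where 37.9% of all passed. The medians at the 2 times were -0.12 and -0.07. At 60 uM 1 passed at each time, as higher, where 6.56% and 9.05% of all probe sets passed. Slc6a13, the GAT2 carrier of GABA and taurine, rose by 1.05 ± 0.12 and 1.34 ± 0.12 at 60 uM and by 1.84 ± 0.12 and 2.60 ± 0.12 at 1000 uM at 24 and 48 h. Slc6a6, the taurine transporter, fell by 1.09 ± 0.15 and 1.53 ± 0.15 at 1000 uM. Slc1a4, a neutral amino acid exchanger, rose by 0.74 ± 0.10 at 1000 uM and 24 h and had a change of 0.11 at 48 h. The others that passed as lower were Slc7a10 (-0.74) and Slc43a1 (-0.55) at 24 h, Slc6a9 (-0.66) and Slc7a6 (-0.57) at 48 h, and Slc16a10 (-0.74 and -0.45) and Slc38a10 (-0.23 and -0.20) at both.

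The genes whose log2 signal ran most like each transporter were found among 10504 other named genes over 30 arrays, as a description without a test, since the arrays share the 6 groups. Slc38a4 ran most like Ass1 (r = 0.989), the urea cycle's argininosuccinate synthetase, and Sdc4 (r = 0.979). Slc7a1 ran like Abhd2 (r = 0.963) and Casp12 (r = 0.932), Slc3a2 like the aminoacyl-tRNA synthetases Gars1 (r = 0.948) and Yars1 (r = 0.945), and Slc38a2 like the same pair (r = 0.838 and 0.836). Slc7a11 ran like another synthetase, Iars1 (r = 0.939), and Itih4 (r = 0.932), and Slc38a3 like Cp, ceruloplasmin (r = 0.930), and Xbp1 (r = 0.916). Slc43a2 reached r = 0.846 with Pvr and 0.841 with Ipo4. The dim Slc7a2, Slc7a3 and Slc7a5 reached no more than 0.733, 0.664 and 0.722.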

How the data were processed

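Each of 30 cultures was measured on 1 array. The authors deposited 1 linear intensity (signal) for each probe set, computed with MAS5, of unstated version, per the submitters' processing notes. Every array has a mean of 1501 once 2% of values at either end are trimmed, so total RNA per cell cannot be compared. Groups were read from the labels, and all 30 arrays were used.

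Values were log2-transformed here, and the dimmest 40% of probe sets by mean were set aside, leaving 18625 (means over log2 8.00, signal 255). A single limma model (version 3.58.1 in R 4.3.3) with group means covered all arrays, with trended variance moderation. Benjamini-Hochberg adjustment was done separately for 9 comparisons. These were either dose with DMSO and the doses with each other at both times, DMSO cultures between times, and the change of each dose's effect between times. The floor is the highest of 3 TrpnX control sets on each array, averaged per group (log2 5.70 to 6.31). For 1 dim probe set and 1 ratio an exact permutation test was used. On data simulated for 1000 uM against DMSO at 24 h over 18625 probe sets, 50 were changed by each of log2 0.3, 0.5, 1 and 2. The fit found 24, 60, 90 and 100% of these. In the real comparison 5385 passed, so the adjustment was less strict there and these shares do not carry over to it.

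Gene symbols are those of the platform annotation, and promoters come from RefSeq's GRCr8 table. The transporters and gene lists were chosen with earlier results of these data known, so no list is independent support. The rule named all 10 transporters, up to 8 other transporters, up to 6 response genes and up to 4 of each other list by largest change. Slc38a10, Gclc, Gclm, Nqo1, Gsr and Asns were named after their values were seen. Alternatives were median centring, spike-in scaling, quantile normalization, no filter, log2(signal + 64), a fit of only the groups compared, leaving out single arrays, and other probe sets of a gene. A fit blocked on rounds of 6 arrays was added after seeing the data.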

Additional observations from a re-analysis of the deposited data

Results flagged for a closer look

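In 5 of 78 groups of 5 arrays, 1 array lay far from the others of its group by Dixon's test, and chance alone gives about 1 in 20. Replicate 5 of 60 uM at 48 h was the lowest array for Slc7a11 (signal 1387), for Slc7a5 (319) and for the dimmest probe set of Slc7a1 (25.2). For Slc38a2, replicate 1 of 60 uM at 24 h was the highest (4122), as was replicate 4 of 1000 uM at 24 h (4843).

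The effect of 1000 uM at 48 h minus that at 24 h passed in limma for 7 transporters. It was -1.02 for Slc7a1 (limma adjusted p = 1.61e-05), -0.88 for Slc7a11 (3.77e-05), -0.51 for Slc3a2 (2.31e-05), -1.51 for Slc43a2 (0.00963), -0.56 for Slc38a2 (0.00189) and -0.20 for Slc38a4 (0.0183). For Slc7a3 it was 2.62 (limma adjusted p = 0.00699).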

How the results depend on the processing

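Of 37 single results that passed, 25 also passed with the same direction under every scaling, filter, constant and fit tried and without any single array, leaving aside other probe sets of a gene. Spike-in scaling ended 12 calls, median centring 3, and quantile normalization, no filter and a fit of only the groups compared 1 each. The constant of 64 ended none of these 37. The cause of each change was not tested. Fewer transporters passed under spike-in scaling at 60 uM and 24 h (0, against 2), between the doses at 24 h (2, against 4) and in DMSO by time (1, against 3), and under median centring at 60 uM and 24 h (1). Spike-in scaling also ended Slc3a2 and Slc38a2 at 1000 uM and 48 h, and Slc38a4 at 60 uM and 48 h. It further ended Slc38a3 between the doses at 48 h and Slc38a4 for 1000 uM between times. At 1000 uM and 24 h it ended Slc7a11 and added Slc38a2. Median centring also ended Slc7a11 at 1000 uM and 24 h and Slc38a3 in DMSO by time. Leaving out single arrays gave 3 to 5 at 60 uM and 48 h, with 5 without replicate 2 of DMSO.

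Changes of sign were otherwise seen for results that had not passed. With the second Slc7a1 probe set the change at 60 uM and 48 h, which had passed, and 3 others turned sign: Slc7a1 0.024 (1000 against 60 uM at 24 h), Slc7a1 0.0053 (60 uM at 48 h), Slc7a1 0.14 (60 uM between times), Slc7a1 -0.16 (DMSO by time). With the second Slc43a2 set these were Slc43a2 0.23 (1000 against 60 uM at 24 h), Slc43a2 0.13 (1000 uM at 24 h), Slc43a2 0.10 (60 uM between times), Slc43a2 -0.066 (DMSO by time). Under median centring they were Slc38a3 -0.033 (1000 uM between times), Slc38a3 -0.061, Slc7a2 -0.039 (60 uM between times), Slc38a4 0.013 (DMSO by time), Slc3a2 0.016, Slc43a2 0.032 (60 uM at 24 h). Under quantile normalization they were Slc38a4 0.020, Slc7a1 -0.0020 (DMSO by time), Slc43a2 0.017 (60 uM at 24 h), Slc7a2 -0.038 (60 uM between times). Under spike-in scaling they were Slc38a2 0.11, Slc38a4 0.14, Slc7a11 0.045 (DMSO by time), Slc38a3 -0.040 (1000 uM between times), Slc38a3 -0.070, Slc7a2 -0.048, Slc7a5 -0.0077 (60 uM between times), Slc3a2 0.084, Slc43a2 0.10, Slc7a2 0.052 (60 uM at 24 h), Slc7a11 0.067, Slc7a2 0.082 (1000 against 60 uM at 24 h), Slc7a2 0.13 (1000 uM at 24 h), Slc7a2 0.0048 (60 uM at 48 h), Slc7a5 0.071 (1000 against 60 uM at 48 h). Over single arrays left out, the changes that crossed 0 ranged as follows: Slc38a2 -0.10 to 0.023 (DMSO by time), Slc38a3 -0.027 to 0.072 (1000 uM between times), Slc38a3 -0.034 to 0.064 (60 uM between times), Slc38a4 -0.054 to 0.0036 (DMSO by time), Slc43a2 -0.096 to 0.089 (60 uM at 24 h), Slc7a1 -0.079 to 0.071 (DMSO by time), Slc7a11 -0.084 to 0.033 (1000 against 60 uM at 24 h), Slc7a2 -0.15 to 0.084 (1000 against 60 uM at 24 h), Slc7a2 -0.18 to 0.014 (1000 uM at 24 h), Slc7a2 -0.15 to 0.057 (60 uM at 24 h), Slc7a2 -0.098 to 0.030 (60 uM at 48 h), Slc7a2 -0.088 to 0.12 (60 uM between times), Slc7a3 -0.44 to 0.33 (1000 against 60 uM at 24 h), Slc7a5 -0.22 to 0.0048 (1000 against 60 uM at 48 h), Slc7a5 -0.037 to 0.24 (60 uM between times).

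The running numbers in the titles pass through the 6 groups in 5 rounds, and the labels do not say what a round shares. Over 75 pairs of arrays of a round, deviations from the group means correlated with a median r of 0.0056, and 1 pair was over 0.1. A fit with the round as a replicate block, chosen after seeing the data, gave the same counts of transporters in all 9 comparisons (8 at 1000 uM and 48 h) and ended none of the 37 calls. Over all probe sets it moved the calls for 60 uM between times from 16 to 25, as quantile normalization did. Spike-in scaling moved them to 8, those for 1000 uM between times from 1544 to 546, for 60 uM at 48 h from 1686 to 740 and between the doses at 24 h from 3332 to 2091. With only the 2 DMSO groups fitted, 758 in place of 1293 passed between the times. Dim signals limit Slc7a3, which lay between 58.1 and 532.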
